A study of Homo sapiens with 9 samples.

Results

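The integrin and laminin chains described here were 37 genes of the deposited count table whose symbols begin with ITGA, ITGB or LAM followed by a chain number or letter, out of 60199 symbols. They comprised 18 integrin alpha chains, 8 integrin beta chains and 11 laminin chains. Their RNA was measured in 9 cultures of the human mammary epithelial line MCF10A and its derivatives, 3 per group. CT was parental MCF10A, not transformed and grown without the 2 factors used to derive the other lines. MC26 was derived from unsorted MCF10A cells by long exposure to BMP2 (bone morphogenetic protein 2) and IL6 (interleukin 6). M1B26 was derived under the same 2 factors from the fraction of MCF10A that carries BMPR1B, a BMP receptor, and the methods of the study describe it as expanded from 3 clones picked in soft agar. All 3 groups therefore share the MCF10A background and its growth medium, and the effect of the derivation, of the clonal selection and of the factors themselves cannot be told apart. The chains were picked by name and not by a cut on their values, but with earlier results of these data known.

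Integrins are cell surface receptors made of 1 alpha and 1 beta chain that tie the cytoskeleton to the surrounding matrix. Laminins are secreted trimers of 1 alpha, 1 beta and 1 gamma chain, and they form the sheet of the basement membrane on which the mammary epithelium rests. In breast epithelium, basal cells deposit laminin-332, whose alpha and beta chains are LAMA3 and LAMB3, and bind it through integrins alpha 3 beta 1 and alpha 6 beta 4, the latter in hemidesmosomes, the junctions that anchor keratin filaments to the basement membrane.

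Libraries held between 21425118 (CT replicate 2) and 80076597 counts (CT replicate 3). Levels are given as CPM, a gene's counts relative to the total of its library after scaling with TMM factors, and differences as log2 fold changes with their standard error (SE) from edgeR's quasi-likelihood test, adjusted by the Benjamini-Hochberg method over the 15717 genes that passed the filter on low counts. A gene was called at an adjusted p under 0.05, and "rose" and "fell" are used for calls alone. With 3 libraries per group, p-values measure the spread between these cultures. In bulk RNA, fewer cells of a type and less RNA per cell cannot be told apart. The 8 mammary epithelial markers summed to 7113 to 8941 CPM in CT, 7436 to 9292 in MC26 and 6698 to 6967 in M1B26, led by the basal keratin KRT5. Of these 8, 2 rose and 4 fell in MC26 against CT, and 2 rose and 3 fell in M1B26 against CT, where 38.7% and 48.9% of all tested genes were called. EPCAM lay at 65.6 to 74.4 CPM in CT, 11.7 to 19.1 in MC26 and 63.5 to 85.7 in M1B26. CDH1 lay at 67.6 to 86.2, 37.6 to 44.8 and 34.2 to 55.3 CPM, TP63 at 29.3 to 36.0, 76.9 to 78.7 and 73.8 to 81.7 CPM, and the basal keratin KRT14 at 42.2 to 61.7, 766 to 1521 and 461 to 625 CPM. The labels named no preparation or sequencing batch, and a batch that followed the line cannot be told apart from it.

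Of the 37 chains, 28 passed the filter, and 9 were too low to test. ITGAX and LAMB4 passed only through the derived lines, and both are among the chains called higher there than in CT. In MC26 against CT, 20 of the 28 were called, 13 higher and 7 lower, where 38.7% of all tested genes were called (18.8% higher, 19.9% lower). In M1B26 against CT, 19 were called, 11 higher and 8 lower, where 48.9% of all genes were called (25.2% higher, 23.7% lower). In M1B26 against MC26, 14 were called, 6 higher and 8 lower, where 39.5% of all genes were called (21.2% higher, 18.4% lower). The median log2 fold change of the tested chains was 0.26, 0.46 and -0.08 in these comparisons, beside medians of 0.001, 0.0019 and -0.0014 over all tested genes. Among called chains, 5 rose and 3 fell at least 2-fold in MC26 against CT (10.8% of all genes in either direction), 5 rose and 4 fell in M1B26 against CT (11.7%), and 1 rose and 2 fell in M1B26 against MC26 (8.17%). The CPM of the groups did not overlap for 20, 25 and 14 of the 28 chains, where 50.3%, 59.0% and 53.5% of all tested genes did not overlap. Among laminin genes alone, 6 rose and 3 fell of 10 tested in MC26 against CT. In M1B26 against CT 3 rose and 2 fell, and in M1B26 against MC26 2 rose and 2 fell, both near the share of all genes called. Over all genes, the called genes were 48.5% higher in MC26 against CT, which became 35.8% with total counts in place of TMM scaling and 59.7% with length and GC offsets. For M1B26 against CT the split was 51.5%, and 39.6% with total counts. For M1B26 against MC26 it was 53.5%, and 39.1% with length and GC offsets. MC26 against CT and M1B26 against CT share their CT libraries, so the values of the 2 comparisons are not independent.

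**Figure D1:**
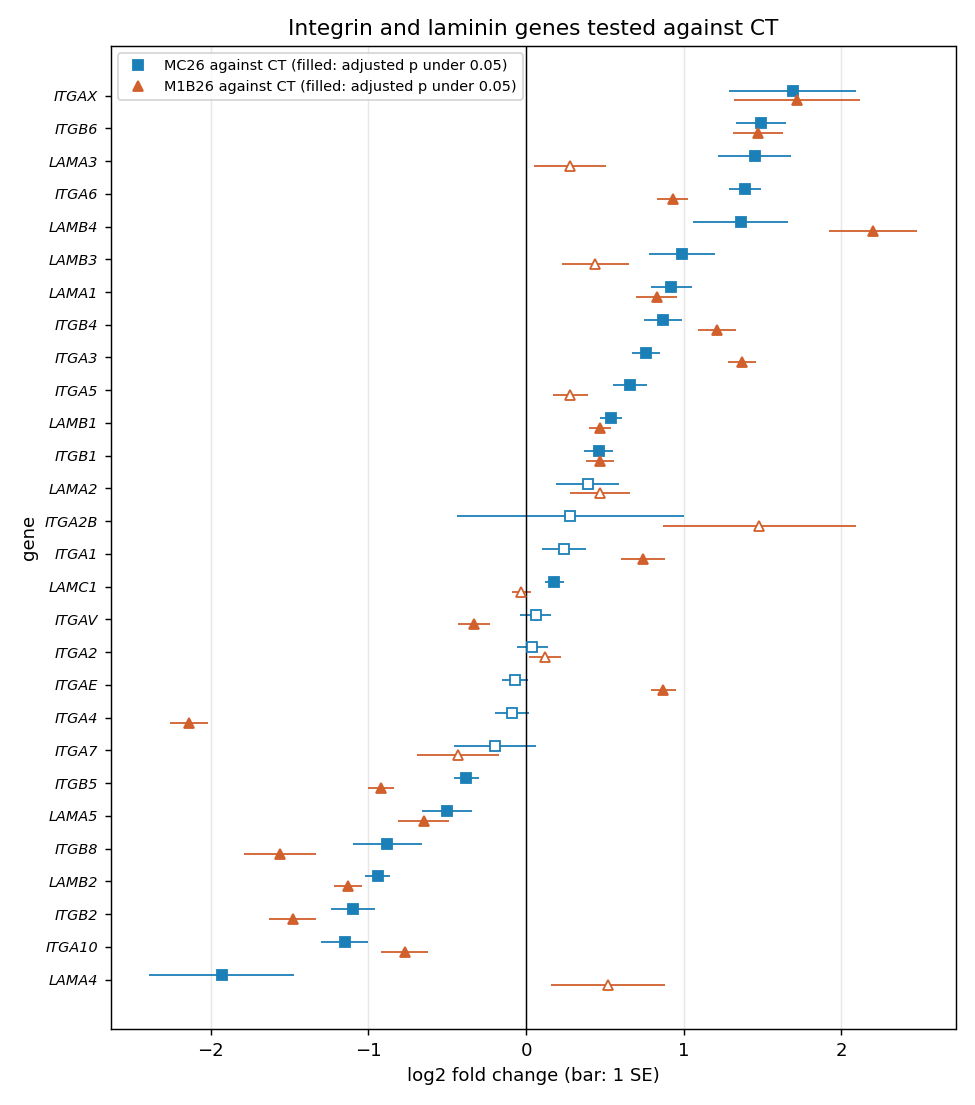
Log2 fold change (horizontal axis) of the 28 tested integrin and laminin genes (vertical axis, ordered by MC26 against CT) in MC26 against CT (blue squares) and M1B26 against CT (orange triangles). Lines are 1 SE and filled symbols have an adjusted p under 0.05. LAMA3 stands at 1.45 in MC26 and at 0.28 in M1B26, ITGA4 far left only for M1B26, at -2.14, and LAMA4 at -1.93 in MC26.

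LAMA3 and LAMB3, chains of laminin-332, rose together in MC26. LAMA3, the alpha 3 chain that integrins alpha 3 beta 1 and alpha 6 beta 4 bind, read 333, 344 and 342 CPM in CT, 1315, 933 and 535 CPM in MC26, and 407, 395 and 432 CPM in M1B26. LAMB3, the beta 3 chain, read 601, 529 and 640.3 CPM in CT, 1595, 1204 and 726 CPM in MC26, and 808, 801 and 802 CPM in M1B26. On GRCh38, LAMB3 lies at chr1:209614870-209652425 (minus strand) and LAMA3 at chr18:23689453-23956222 (plus strand). For both chains every MC26 and every M1B26 library lay above every CT library, and MC26 replicate 1 was the highest and replicate 3 the lowest of its group.

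Against CT, edgeR gave MC26 a log2 fold change of 1.45 (SE 0.23) for LAMA3 and 0.99 (SE 0.21) for LAMB3, with adjusted p = 0.000728 and 0.00362. Without MC26 replicate 1 both chains still rose, by 1.12 and 0.71 on the log2 scale. In M1B26 against CT the values were 0.28 (SE 0.23) and 0.44 (SE 0.21), and neither passed the test in edgeR's fit over all 9 libraries (adjusted p = 0.346 and 0.0994). That fit shares 1 estimate of the spread among groups, and the cultures within CT and within M1B26 lay closer together than those within MC26. With only the 6 libraries compared, edgeR called both chains higher in M1B26 than in CT, with adjusted p = 0.00628 for LAMA3 and 0.000746 for LAMB3. Both calls also appeared without MC26 replicate 3 (adjusted p = 0.0496 and 0.00420 by edgeR), and that of LAMB3 without MC26 replicate 1 (0.0290) or without the filter (0.000647). In M1B26 against MC26, LAMA3 fell by 1.17 (SE 0.23, adjusted p = 0.00257 by edgeR), while LAMB3 at -0.55 (SE 0.21) had an adjusted p = 0.0566. The LAMB3 value depended on single MC26 libraries. It was -0.80 (adjusted p = 0.000359 by edgeR) without MC26 replicate 3 and -0.26 (adjusted p = 0.254) without MC26 replicate 1. The call depended on the processing too. LAMB3 was called by edgeR with total counts (adjusted p = 0.0425), without the filter (6.50e-05) and with length and GC offsets (0.0265, and 0.0374 with a replicate block).

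The MC26 cultures differed among themselves in these chains more than in most genes. LAMA3 was 2.46-fold higher in the highest than in the lowest MC26 library, and LAMB3 2.20-fold. Of 10637 genes compared, 83 had a larger ratio than LAMA3 and 118 a larger ratio than LAMB3. Among the 22 chains with a mean of at least 5 CPM over all libraries, 5 reached a ratio of 1.5 within MC26, namely ITGA1, ITGB6, ITGB8, LAMA3 and LAMB3, beside 5.47% of all genes. No chain reached it within CT (3.45% of all genes), and ITGB2 was the only one within M1B26 (2.10%).

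**Figure D2:**
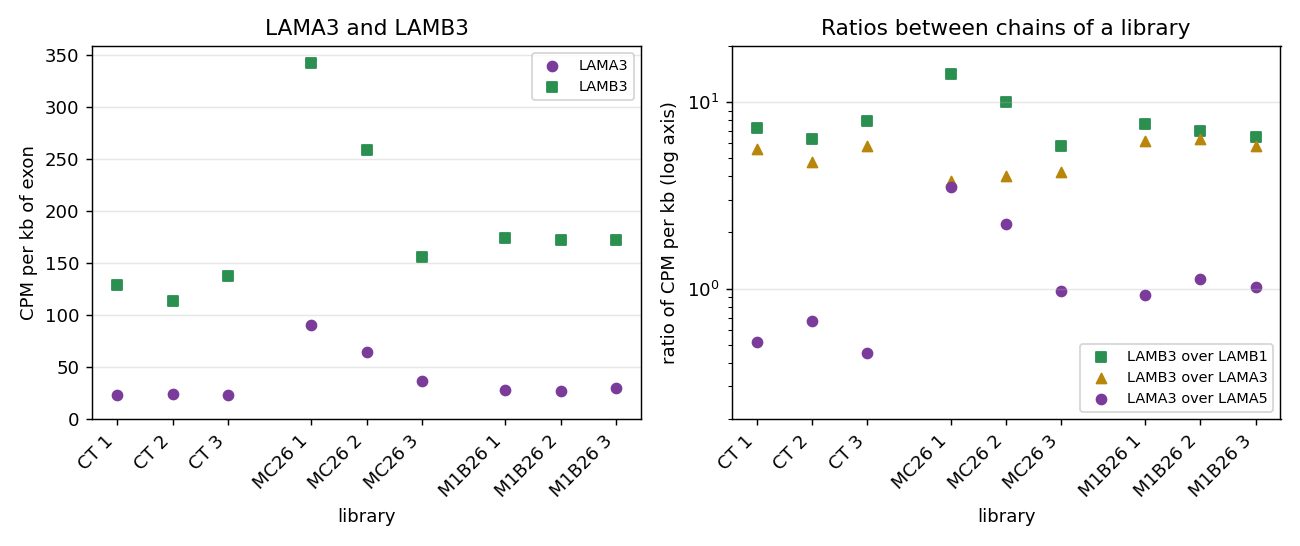
Left, CPM per kb of exon (vertical axis) of LAMA3 and LAMB3 in each of the 9 libraries (horizontal axis). Right, ratios of the levels per kb of pairs of chains (log vertical axis) in the same libraries. MC26 replicate 1 is the highest library and MC26 replicate 3 the lowest of its group in both chains, and LAMA3 over LAMA5 lies above its CT values in every derived library.

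RefSeq promoter windows, the 250 bases before a transcript start on GRCh38.p14, were on hand for 26 of the 37 chains. ITGA3 and ITGB4 had none. Windows of LAMA3 and LAMB3 are shown as chains that rose in MC26, and windows of LAMB2 and LAMA5 as chains of the same families that fell. Sequences are printed 5′ to 3′ on the strand of the gene. Capitals mark matches, on either strand, to TGANTCA (AP-1), GGCGCC (a GC-rich SMAD element) or TTCNNNGAA (STAT). AP-1 factors act downstream of growth factor signaling, SMAD proteins downstream of BMP2 and STAT3 downstream of IL6. The LAMA3 window, chr18:23872770-23873019 on the plus strand, lies inside the gene, before the start of its shorter form. Of the 3 LAMB3 windows, 1 that overlaps the first shown and holds no match is not printed. The LAMB3 windows shown, chr1:209652426-209652675 and chr1:209651375-209651624, and those of LAMB2, chr3:49133051-49133300, and LAMA5, chr20:62367313-62367562, are on the minus strand.
LAMA3: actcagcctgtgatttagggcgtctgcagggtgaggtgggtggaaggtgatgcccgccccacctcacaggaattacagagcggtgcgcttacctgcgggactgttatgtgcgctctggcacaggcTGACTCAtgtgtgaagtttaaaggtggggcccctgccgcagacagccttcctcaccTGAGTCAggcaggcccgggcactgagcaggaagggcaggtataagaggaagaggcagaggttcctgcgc
LAMB3, first start: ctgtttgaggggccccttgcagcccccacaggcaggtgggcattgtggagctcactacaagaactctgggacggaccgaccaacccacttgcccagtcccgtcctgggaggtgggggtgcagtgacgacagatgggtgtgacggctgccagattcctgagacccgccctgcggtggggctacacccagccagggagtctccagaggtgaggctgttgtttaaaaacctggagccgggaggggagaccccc
LAMB3, downstream start: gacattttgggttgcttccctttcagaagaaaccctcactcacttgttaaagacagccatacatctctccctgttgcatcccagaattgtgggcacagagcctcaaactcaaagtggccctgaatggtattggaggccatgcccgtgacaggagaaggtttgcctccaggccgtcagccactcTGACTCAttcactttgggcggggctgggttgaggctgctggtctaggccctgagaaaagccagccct
LAMB2: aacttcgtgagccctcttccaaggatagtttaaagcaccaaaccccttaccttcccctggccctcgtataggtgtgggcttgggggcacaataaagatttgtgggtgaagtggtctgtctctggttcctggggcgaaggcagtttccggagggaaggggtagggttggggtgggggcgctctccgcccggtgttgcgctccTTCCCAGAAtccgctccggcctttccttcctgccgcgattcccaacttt
LAMA5: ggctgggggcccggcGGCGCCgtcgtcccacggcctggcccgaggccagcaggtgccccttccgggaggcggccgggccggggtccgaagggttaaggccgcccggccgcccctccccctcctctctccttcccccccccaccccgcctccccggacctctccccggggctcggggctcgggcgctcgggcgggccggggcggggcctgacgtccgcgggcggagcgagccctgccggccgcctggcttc
Counted from the transcript start, LAMA3 held AP-1 matches at -125 and -69, and the downstream LAMB3 window held 1 at -67. They were the only 2 of the 26 chains with a window to match these letters, which occurred in 6.57% of 35116 RefSeq windows. The count lies near this share. The other chains with a window that rose in MC26 against CT (ITGA5, ITGA6, ITGB1, ITGB6, LAMB1, LAMB4 and LAMC1) held no AP-1 match. The 26 chains had 33 windows. A chain counts once however many windows it has, while the shares are per window, and the 2 were not tested against each other. The SMAD letters occurred in windows of 7 chains (ITGA1, ITGA2, ITGA8, ITGA11, ITGAV, LAMA5 and LAMB1) and in 16.4% of all windows, and the STAT letters in windows of ITGAE and LAMB2 and in 6.57% of all windows. A match is a run of letters and says nothing of binding in these cells.

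The laminin chains outside laminin-332 moved in both directions. LAMB2, the beta 2 chain, read 185, 152 and 190.4 CPM in CT, 87.8, 93.8 and 92.9 CPM in MC26, and 82.1, 82.0 and 77.3 CPM in M1B26. Every derived culture lay below every CT culture. LAMB2 fell by 0.94 (SE 0.08, adjusted p = 1.31e-05 by edgeR) in MC26 and by 1.13 (SE 0.09, adjusted p = 2.55e-06) in M1B26. LAMB1, a beta chain of many laminins outside laminin-332, moved the other way, at 333, 334 and 322 CPM in CT, 450.1, 482 and 502 CPM in MC26, and 424, 457 and 492 CPM in M1B26. It rose by 0.54 (SE 0.07) in MC26 and by 0.47 (SE 0.07) in M1B26, with adjusted p = 0.000197 and 0.000292 by edgeR. Per kb of exon, the level of LAMB1 divided by that of LAMB2 averaged 0.700 ± 0.0977 for CT, 1.93 ± 0.0568 for MC26 and 2.10 ± 0.224 for M1B26 (mean ± SD, n = 3 each). The order in CT depends on the division by length, as the mean CPM in CT was 329.5 for LAMB1 and 176 for LAMB2. DLD, whose exons overlap those of LAMB1 on the opposite strand, fell by 0.39 in MC26 against CT, opposite to LAMB1, and strand use in the counting is not known.

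LAMA5, the alpha 5 chain of laminin-511, read 633, 504 and 742 CPM in CT, 369, 416 and 544 CPM in MC26, and 435, 344 and 416 CPM in M1B26. The MC26 and CT ranges overlapped, and the M1B26 and CT ranges did not. LAMA5 fell by 0.50 (SE 0.16, adjusted p = 0.0303 by edgeR) in MC26, a call that was lost without any 1 of CT replicates 1 and 3 and MC26 replicates 1 and 2 (-0.49, -0.35, -0.38 and -0.45). In M1B26 it fell by 0.65 (SE 0.16, adjusted p = 0.00661). ADRM1, which overlaps LAMA5 at its end on the opposite strand, rose by 0.67 and 0.42 in the same comparisons.

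LAMC1, the gamma 1 chain that most laminins other than laminin-332 carry, had the smallest changes from CT among the abundant laminin chains. It read 380.5, 406 and 394 CPM in CT, 443, 461 and 429 CPM in MC26, and 386, 370.3 and 401 CPM in M1B26. MC26 stood slightly above both other groups. The rise in MC26 was 0.18 (SE 0.06, adjusted p = 0.0411 by edgeR), and it was lost in 10 other settings, among them without CT replicate 1 or 3, MC26 replicate 1 or 2, or M1B26 replicate 1. The fall in M1B26 against MC26 was 0.20 (SE 0.06, adjusted p = 0.0222) and was lost without MC26 replicate 1 or 2 or M1B26 replicate 1 or 2.

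LAMA1, the alpha 1 chain of laminin-111, was low, at 4.30, 3.49 and 4.11 CPM in CT, 8.95, 6.46 and 7.44 CPM in MC26, and 7.12, 6.98 and 7.33 CPM in M1B26. Both derived lines stood above CT, by 0.92 (SE 0.13, adjusted p = 0.000374 by edgeR) and 0.83 (SE 0.13, adjusted p = 0.000477). The remaining laminin chains stayed under 1.5 CPM in every library. LAMA4, an alpha chain best known from vessels and fat, read 0.557 to 0.671 CPM in CT, 0.0746 to 0.259 in MC26 and 0.615 to 1.33 in M1B26. It fell by 1.93 (SE 0.46, adjusted p = 0.00693 by edgeR) in MC26 and was 2.46 higher (SE 0.45, adjusted p = 0.00158) in M1B26 than in MC26. LAMB4 read 0.175 to 0.257, 0.392 to 0.622 and 0.876 to 1.15 CPM in the 3 groups, and rose by 1.36 (SE 0.30) in MC26 and by 2.20 (SE 0.28) in M1B26 against CT. With 18, 4 and 15 counts in CT, LAMB4 passed the filter only through the derived lines, where it is high. Its tests against CT are therefore no independent support for a rise. LAMA2, the alpha chain of muscle laminin, read 0.830 to 1.48 CPM over all libraries and was not called. LAMC3 had 11, 0 and 2 counts in all of CT, MC26 and M1B26 and was not tested.

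**Figure D3:**
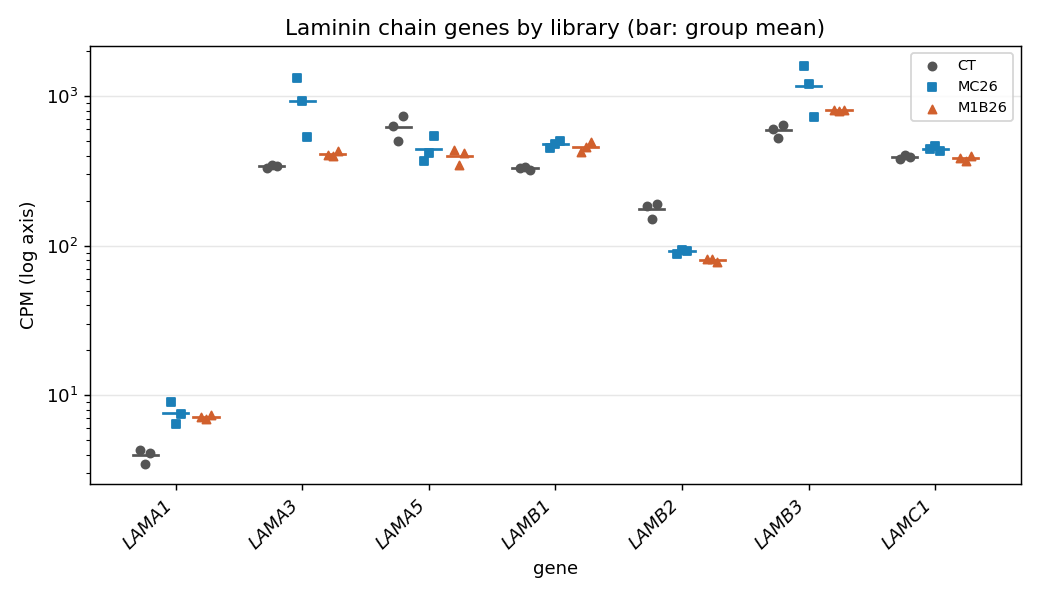
CPM (log vertical axis) of the 7 laminin genes that averaged at least 5 CPM in a group (horizontal axis) in CT (grey circles), MC26 (blue squares) and M1B26 (orange triangles), 1 point per library and a bar at the group mean. LAMB2 falls from 152 to 190.4 CPM in CT to at most 93.8 CPM in both derived lines, while LAMA3 and LAMB3 are widest in MC26.

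Of the 4 laminin-binding integrin chains, ITGA3, ITGB4 and ITGA6 rose in both derived lines. ITGA3, the alpha 3 chain that pairs with beta 1, read 579.9, 485 and 625 CPM in CT, 982, 924 and 963 CPM in MC26, and 1555, 1398 and 1420.1 CPM in M1B26. ITGB4, the beta 4 chain of the hemidesmosome, read 792, 609 and 807 CPM in CT, 1532, 1244 and 1249 CPM in MC26, and 1847, 1712 and 1558 CPM in M1B26. ITGA6, the alpha 6 partner of both beta 4 and beta 1, read 371, 411 and 372 CPM in CT, 1163, 1002 and 847 CPM in MC26, and 745, 706 and 740.5 CPM in M1B26. The 3 groups did not overlap for any of these 3 genes. ITGA3 and ITGB4 were highest in M1B26, and ITGA6 in MC26.

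In edgeR's test ITGA3 rose by 0.76 (SE 0.09, adjusted p = 8.66e-05) in MC26 and by 1.37 (SE 0.09, adjusted p = 1.18e-06) in M1B26. ITGB4 rose by 0.87 (SE 0.12, adjusted p = 0.000271) and 1.21 (SE 0.12, adjusted p = 1.82e-05), and ITGA6 by 1.39 (SE 0.10, adjusted p = 3.46e-06) and 0.93 (SE 0.10, adjusted p = 3.43e-05). Between the derived lines, M1B26 exceeded MC26 by 0.61 for ITGA3 (SE 0.09, adjusted p = 0.000462) and by 0.35 for ITGB4 (SE 0.12, adjusted p = 0.0387), whereas ITGA6 fell by 0.46 (SE 0.10, adjusted p = 0.00461). The ITGB4 call was lost without CT replicate 1, MC26 replicate 2 or 3, or M1B26 replicate 1 or 2. ITGA7, the laminin-binding alpha chain of muscle, read 0.406 to 0.753 CPM over all libraries and was not called, at -0.20 (adjusted p = 0.576 by edgeR) in MC26 and -0.43 (adjusted p = 0.207) in M1B26.

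ITGA3 (chr17:50055968-50090481), ITGB4 (chr17:75721328-75757818), ITGAE (chr17:3714628-3801188) and ITGA2B (chr17:44372180-44389649) lie on chromosome 17, and genes of that chromosome were shifted as a body in M1B26. The median log2 fold change of the 839 other tested genes of the chromosome was 0.00034 in MC26 against CT, 0.47 in M1B26 against CT and 0.48 in M1B26 against MC26, beside 0.01, -0.01 and -0.02 for the 12987 tested genes placed elsewhere. In M1B26 against CT, 64.4% of the chromosome 17 genes rose, against 24.4% elsewhere. Relative to the chromosome 17 median, ITGA3 stood at 0.90 and ITGB4 at 0.74 in M1B26 against CT. In M1B26 against MC26 the same values were 0.13 for ITGA3 and -0.13 for ITGB4, so that the direction of ITGB4 turned. The rises in MC26 against CT, 0.76 and 0.87, came where the chromosome was not shifted, and exceeded 95.1% and 95.9% of the other chromosome 17 genes. The part of the chromosome's shift in the values of single genes was not tested.

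**Figure D4:**
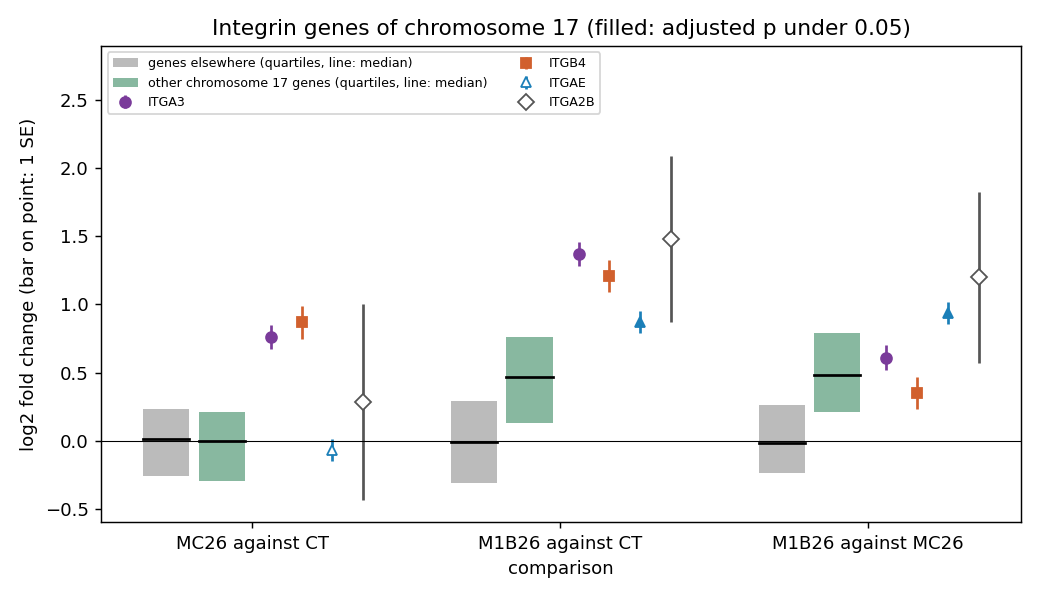
Log2 fold change (vertical axis) of the 4 tested integrin genes of chromosome 17 (symbols, line of 1 SE, filled where the adjusted p was under 0.05) in the 3 comparisons (horizontal axis), beside the quartiles (boxes) and medians (black lines) of other chromosome 17 genes (green) and of genes elsewhere (grey). In M1B26 against MC26, ITGA3 and ITGB4 lie within the green box, whose median is 0.48, while in MC26 against CT both lie above it.

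ITGB1, the beta 1 chain that pairs with the largest number of alpha chains, read 773, 898 and 761 CPM in CT, 1221, 1138 and 986 CPM in MC26, and 1115, 1150.0 and 1098 CPM in M1B26. Every derived culture was above CT, and the derived lines overlapped. It rose by 0.46 (SE 0.09, adjusted p = 0.00221 by edgeR) in MC26 and by 0.47 (SE 0.09, adjusted p = 0.00140) in M1B26, and the difference between the lines was 0.01 (SE 0.09).

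The collagen-binding alpha chains, all partners of beta 1, did not move together. ITGA2, the most abundant of them, read 64.3, 73.2 and 60.6 CPM in CT, 66.5, 70.8 and 66.1 CPM in MC26, and 72.6, 62.3 and 80.4 CPM in M1B26, with overlap of all groups and differences of 0.04, 0.12 and 0.08 that were not called. ITGA10, described mainly in cartilage, read 27.2, 29.1 and 26.8 CPM in CT, 10.7, 10.9 and 15.8 CPM in MC26, and 16.8, 18.2 and 13.7 CPM in M1B26. It fell by 1.15 (SE 0.15, adjusted p = 0.000188 by edgeR) in MC26 and by 0.77 (SE 0.15, adjusted p = 0.00146) in M1B26. ITGA1 read 14.3, 16.2 and 13.3 CPM in CT, 13.1, 17.8 and 20.4 CPM in MC26, and 23.4, 23.5 and 25.6 CPM in M1B26. MC26 overlapped CT, and M1B26 lay above both, by 0.74 (SE 0.14, adjusted p = 0.00140 by edgeR) over CT and by 0.50 (SE 0.14, adjusted p = 0.0156) over MC26, the latter lost without M1B26 replicate 3. PELO lies within ITGA1 on the same strand with 20060 counts to 7954 of ITGA1, and rose by 0.36 in M1B26 against CT, so the ITGA1 value is uncertain. ITGA11 had 3, 9 and 3 counts in the 3 groups and was not tested.

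Among chains of the integrins that bind the RGD motif of fibronectin, vitronectin and latent TGF-beta, beta 6 and beta 8 moved in opposite directions. ITGB6, the epithelial beta 6 chain that activates latent TGF-beta, read 24.9, 25.2 and 24.3 CPM in CT, 88.3, 71.3 and 49.4 CPM in MC26, and 73.2, 65.5 and 66.8 CPM in M1B26. ITGB8, the beta 8 chain that binds the same latent complex, read 49.6, 58.2 and 47.2 CPM in CT, 18.0, 27.6 and 38.2 CPM in MC26, and 16.0, 14.7 and 21.4 CPM in M1B26. All derived cultures lay above CT for ITGB6 and below it for ITGB8. MC26 replicate 3 was the closest to CT for both genes.

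ITGB6 rose by 1.49 (SE 0.16, adjusted p = 5.01e-05 by edgeR) in MC26 and by 1.47 (SE 0.16, adjusted p = 3.74e-05) in M1B26. ITGB8 fell by 0.88 (SE 0.22, adjusted p = 0.00994) in MC26 and by 1.56 (SE 0.23, adjusted p = 0.000247) in M1B26. Between the lines ITGB8 was -0.68 (SE 0.23, adjusted p = 0.0349), a call lost without MC26 replicate 2 or 3 (-0.39 without the latter) or M1B26 replicate 1 or 2. The ITGB6 level per kb of exon was 1.27 ± 0.114 times that of ITGB8 in CT, 7.67 ± 4.80 times in MC26 and 10.6 ± 2.12 times in M1B26 (mean ± SD, n = 3 each). The order in CT depends on the division by length, as the mean CPM in CT was 24.8 for ITGB6 and 51.6 for ITGB8. ITGB5, another partner of alpha V, read 126, 124 and 137 CPM in CT, 109, 96.9 and 91.0 CPM in MC26, and 68.2, 71.3 and 64.7 CPM in M1B26. The groups did not overlap, and ITGB5 fell by 0.38 (SE 0.08, adjusted p = 0.00355 by edgeR) in MC26 and by 0.92 (SE 0.08, adjusted p = 7.17e-06) in M1B26. ITGB3, the beta 3 chain of platelets and vitronectin receptors, had 14, 25 and 25 counts in the groups and was not tested.

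ITGAV, the alpha V chain common to beta 3, 5, 6 and 8, read 139, 159 and 139 CPM in CT, 164, 159 and 133 CPM in MC26, and 117, 105 and 126 CPM in M1B26. MC26 overlapped CT, and M1B26 lay below both. The fall in M1B26 was 0.33 (SE 0.10, adjusted p = 0.0165 by edgeR) against CT, lost without M1B26 replicate 2, and 0.39 (SE 0.10, adjusted p = 0.00936) against MC26. ITGA5, the alpha 5 chain of the fibronectin receptor, read 173, 172 and 198 CPM in CT, 313, 314 and 233 CPM in MC26, and 204, 229 and 226 CPM in M1B26. It rose by 0.66 (SE 0.11, adjusted p = 0.00103 by edgeR) in MC26. In M1B26 its value against CT was 0.28 (SE 0.11, adjusted p = 0.0594, and 0.0432 or 0.0110 without CT or MC26 replicate 3), and against MC26 it fell by 0.38 (SE 0.11, adjusted p = 0.0201), a call lost without MC26 replicate 1 or 2 or M1B26 replicate 1. ITGA2B, the platelet alpha chain, stayed between 0.0249 and 0.521 CPM and was not called. ITGA8 had 1 count in all 9 libraries.

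ITGA4, an alpha chain that binds fibronectin and VCAM1 and is best known from lymphocytes, showed the widest gap between the derived lines among chains over 5 CPM. It read 14.8, 17.1 and 15.5 CPM in CT, 13.2, 15.8 and 15.5 CPM in MC26, and 3.09, 3.48 and 4.10 CPM in M1B26. MC26 overlapped CT, while each M1B26 culture was far below both. In M1B26, ITGA4 fell by 2.14 against CT (edgeR, SE 0.12, adjusted p = 5.00e-07) and by 2.06 against MC26 (SE 0.12, adjusted p = 1.56e-06), while MC26 against CT gave -0.09 (SE 0.11). Its relative ITGA9 had 5 counts in all 9 libraries.

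**Figure D5:**
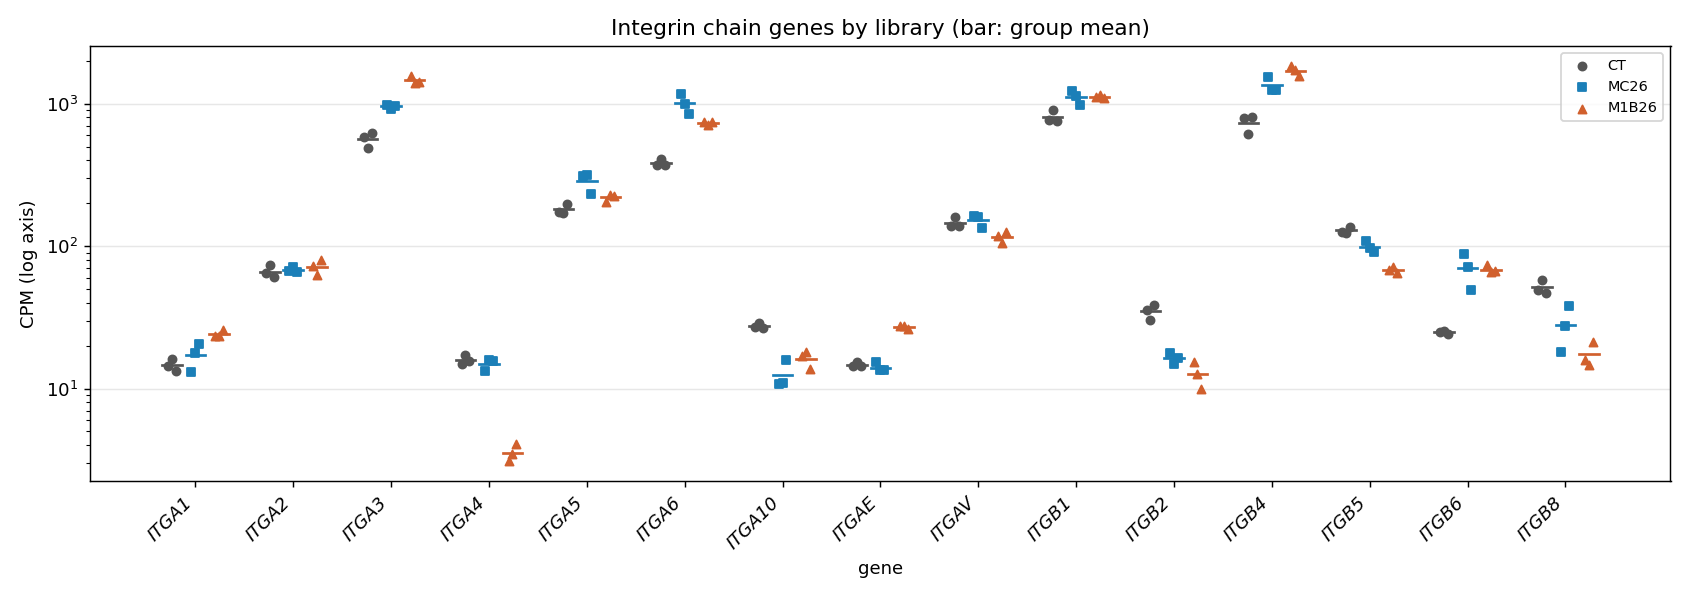
CPM (log vertical axis) of the 15 integrin genes that averaged at least 5 CPM in a group (horizontal axis) in CT (grey circles), MC26 (blue squares) and M1B26 (orange triangles), 1 point per library and a bar at the group mean. ITGA4 lies at 3.09 to 4.10 CPM in M1B26 and at 13.2 CPM or more in all other libraries, and ITGB6 and ITGB8 move in opposite directions from CT.

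Chains known from leukocytes were low. ITGB2, the beta 2 chain of leukocyte integrins, read 35.9, 30.2 and 38.4 CPM in CT, 17.7, 14.9 and 16.4 CPM in MC26, and 15.3, 12.6 and 9.92 CPM in M1B26. Both derived lines lay below CT, 2.15-fold in MC26 and 2.79-fold in M1B26, with adjusted p = 0.000187 and 1.70e-05 by edgeR. ITGB2-AS1, whose exons overlap ITGB2 on the opposite strand, was -0.12 (SE 0.17) in MC26 and fell by 0.78 in M1B26. ITGAE, the alpha E chain that binds E-cadherin, read 14.5, 15.4 and 14.3 CPM in CT, 15.3, 13.4 and 13.4 CPM in MC26, and 27.3, 27.5 and 26 CPM in M1B26. MC26 overlapped CT and M1B26 lay above both.

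In M1B26, ITGAE rose by 0.87 against CT (edgeR, SE 0.08, adjusted p = 8.95e-06) and by 0.94 against MC26 (SE 0.08, adjusted p = 1.28e-05), which was 0.40 and 0.47 above the chromosome 17 median. HASPIN, which lies within ITGAE on the opposite strand with 8211 counts to its 8018, also rose over CT in M1B26, by 0.33 (edgeR, adjusted p = 0.0185), and stood at -0.01 in M1B26 against MC26, and reads of the 2 genes may not be separable without strand. ITGAX, the alpha X chain of myeloid cells, read 0.171 to 0.218 CPM in CT, 0.400 to 0.771 in MC26 and 0.369 to 0.857 in M1B26, and rose by 1.69 (SE 0.40, adjusted p = 0.00681) and 1.72 (SE 0.40, adjusted p = 0.00425). With 15, 5 and 14 counts in CT, ITGAX passed the filter on low counts only through the derived lines, where it is high. Its tests are therefore no independent support for a rise. ITGAD had 1 count in all, ITGAL 9, 2 and 1, ITGAM 10, 7 and 15, and ITGB7 42, 14 and 16 counts in CT, MC26 and M1B26, and these 4 chains were not tested.

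The 7 leukocyte markers, of which ITGAX was 1, summed to 19.7 to 25.9 CPM in CT, 41.6 to 52.4 in MC26 and 63.3 to 84.6 in M1B26. CD3E was at 0 in every library and PTPRC, carried by nearly all leukocytes, was between 0 and 0.0286 CPM. The sum was carried by CD14, at 6.90 to 11.0 CPM in CT and 33.8 to 47.9 in M1B26, and CD68, at 7.86 to 10.5 and 22.9 to 31.0 CPM. The 5 endothelial markers summed to 8.15 to 8.26 CPM in CT, 2.19 to 3.76 in MC26 and 3.65 to 6.59 in M1B26. PECAM1 lay at 4.76 to 5.32, 0.0746 to 0.494 and 0.426 to 1.68 CPM in these groups, while CDH5, specific to endothelium, was at most 0.0249 CPM. All 3 tested endothelial markers were called in MC26 against CT, 1 higher and 2 lower. The 7 fibroblast markers summed to 37.4 to 37.8 CPM in CT, 17.1 to 56.8 in MC26 and 28.5 to 39.9 in M1B26, led in CT by DCN. Of 4 tested, 2 rose in M1B26 against CT and none was called in MC26 against CT. COL1A1 lay at 6.73 to 8.27, 8.35 to 11.2 and 13.6 to 17.5 CPM and LUM at 0.0715 to 0.131, 0 to 0.306 and 4.38 to 6.20 CPM, while COL1A2 and COL3A1 were at most 0.0237 and 0.0437 CPM. DCN and PDGFRB were lower in M1B26 than in CT. DCN lay at 28.6 to 29.9, 5.45 to 47.3 and 9.56 to 17.8 CPM in CT, MC26 and M1B26. PDGFRB lay at 0.655 to 0.815, 0.314 to 0.847 and 0.406 to 0.564 CPM. The part of these markers in the values of the integrin chains was not tested.

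Levels per kb of exon, which can be compared between genes, are a description with no test, and they depend on the exons that the annotation gives a gene. Among integrin beta chains, ITGB4 made up 55.1% ± 5.13 of the summed level in CT, 64.7% ± 1.76 in MC26 and 71.1% ± 1.44 in M1B26 (mean ± SD, n = 3 each). ITGB1 went from 28.5% ± 4.55 to 25.0% ± 1.41 and 21.8% ± 1.28. ITGA3 and ITGA6 held 34.9% ± 3.70 and 35.0% ± 2.75 of the alpha level in CT, 31.7% ± 3.07 and 48.3% ± 2.91 in MC26, and 47.7% ± 1.44 and 35.1% ± 0.483 in M1B26. The leading alpha chain per kb was thus ITGA6 in MC26 and ITGA3 in M1B26, while in CT the 2 did not differ beyond their spread. These orders depend on the division by length. As shares of CPM, ITGA3 and ITGA6 held 39.8% ± 4.02 and 27.2% ± 2.28 in CT, 38.0% ± 3.22 and 39.6% ± 2.87 in MC26, and 54.6% ± 1.49 and 27.4% ± 0.432 in M1B26, so the 2 differed in CT and not in MC26. ITGB4 and ITGB1 held 41.1% ± 5.39 and 45.4% ± 5.27 of the beta CPM in CT, 50.2% ± 1.95 and 41.8% ± 1.84 in MC26, and 56.9% ± 1.85 and 37.5% ± 1.75 in M1B26, so the lead of ITGB4 in CT was not kept. The alpha chains summed to 165 ± 4.70, 309.8 ± 30.2 and 312 ± 9.92 CPM per kb in the 3 groups, and the beta chains to 197 ± 12.1, 306 ± 35.1 and 355 ± 23.1 CPM per kb.

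Among laminins, LAMA5 held 64.5% ± 4.57 of the alpha level in CT, 34.5% ± 14.5 in MC26 and 49.0% ± 2.56 in M1B26, and LAMA3 held nearly all of the rest. The exon length of LAMA3 covers its long and short forms, which lowers its level per kb where the short form prevails. LAMB3 led the beta chains with 74.5% ± 0.742, 85.4% ± 5.55 and 82.6% ± 0.654. LAMA3 over LAMA5 averaged 0.549 ± 0.112 for CT, 2.23 ± 1.27 for MC26 and 1.03 ± 0.105 for M1B26, so the M1B26 cultures stood above CT by more than their spread. LAMB3 over LAMA3, the ratio of the 2 partner chains, was 5.42 ± 0.551, 4.01 ± 0.224 and 6.10 ± 0.280 in the 3 groups. LAMA3 and LAMB3 summed to 150.4 ± 12.0, 317 ± 121 and 201 ± 1.53 CPM per kb.

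Genes that work with these chains were read from lists chosen by function, with earlier results of these data known. Their counts are set beside the 38.7%, 48.9% and 39.5% of all tested genes that were called for MC26 over CT, for M1B26 over CT and between the derived lines. Of the 4 hemidesmosome genes, 3 rose in MC26 against CT, with a list median of 0.48. COL17A1, the transmembrane collagen that binds alpha 6 beta 4 and laminin-332, read 294, 252 and 281 CPM in CT, 1461, 1073 and 953 CPM in MC26, and 821, 739 and 709.7 CPM in M1B26. It rose by 2.08 (SE 0.14, adjusted p = 2.10e-06 by edgeR) in MC26 and by 1.46 (SE 0.14, adjusted p = 1.28e-05) in M1B26. In M1B26 against CT, COL17A1 was the 1 hemidesmosome gene that rose, and DST, the plakin that links keratin to beta 4, fell by 0.38 (SE 0.09, adjusted p = 0.00477). PLEC, the other plakin, rose by 0.56 (SE 0.19, adjusted p = 0.0392) in MC26 and was 0.81 lower in M1B26 than in MC26, where 3 of the 4 genes fell.

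Most called genes among the other basement membrane genes fell in both derived lines against CT. Of 17 tested among 21, 12 fell and 2 rose in MC26 against CT (list median -0.83), and 9 fell and 1 rose in M1B26 against CT (list median -0.43). Between the derived lines, 7 were higher and 4 lower in M1B26 (list median -0.02). PXDN, the peroxidase that crosslinks collagen IV, read 105, 87.4 and 102 CPM in CT, 18.1, 15.7 and 9.95 CPM in MC26, and 23.1, 18.7 and 25.7 CPM in M1B26, with log2 fold changes of -2.76 (SE 0.19, adjusted p = 2.32e-06 by edgeR) and -2.13 (SE 0.18, adjusted p = 6.88e-06). FRAS1, a matrix protein of the epidermal basement membrane, fell by 2.07 in MC26. COL7A1, the anchoring fibril collagen that binds laminin-332, read 28.9, 28.9 and 32.9 CPM in CT, 37.3, 27.9 and 22.0 CPM in MC26, and 5.75, 6.22 and 3.36 CPM in M1B26, and fell by 2.58 (SE 0.23, adjusted p = 8.01e-06) in M1B26 against CT.

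Of 17 tested integrin ligand genes, 6 rose and 1 fell in MC26 against CT (41.2% called, near the share of all genes, with a list median of 0.32), and 9 rose and 5 fell in M1B26 against CT (list median 0.43). Between the derived lines, 3 were higher and 6 lower in M1B26 (list median -0.36). LTBP1, which carries the latent TGF-beta that ITGB6 and ITGB8 complexes bind, read 74.1, 79.7 and 74.5 CPM in CT, 389, 382 and 407 CPM in MC26, and 277, 314 and 254 CPM in M1B26. It rose by 2.37 (SE 0.08, adjusted p = 2.82e-08 by edgeR) in MC26. POSTN, a ligand of alpha V integrins, read 0.0572, 0.131 and 0.122 CPM in CT, 65.9, 26.3 and 14.4 CPM in MC26, and 0.631, 1.78 and 0.277 CPM in M1B26. POSTN passed the level required for naming only through its MC26 libraries, and with CT near 0 no fold is given. As POSTN was named through its MC26 level, the distance of MC26 from the other groups is no support for a difference. The tests of POSTN are left to the list counts and not given as results. COL6A3 fell by 2.09 (SE 0.36) in M1B26 against CT, and THBS1 by 1.61 (SE 0.18) in M1B26 against MC26.

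Of 22 tested adaptor and focal adhesion genes, which couple integrin tails to actin, 8 rose and 5 fell in MC26 against CT (list median 0.13), 5 rose and 9 fell in M1B26 against CT (0.04), and 3 rose and 12 fell in M1B26 against MC26 (-0.28). TNS1 and TNS3, tensins that bind beta chain tails, had log2 fold changes of -1.87 (SE 0.12) and -1.53 (SE 0.17) in MC26 against CT. FERMT2, the kindlin that activates beta 1 integrins, read 65.2, 71.3 and 67.5 CPM in CT, 34.7, 41.8 and 36.4 CPM in MC26, and 21.1, 25.1 and 27.1 CPM in M1B26. Its groups did not overlap, and with TLN2, a talin, it had the largest falls of this list in M1B26 against CT, at 1.48 (SE 0.10, adjusted p = 1.49e-06 by edgeR) and 1.58 (SE 0.11, adjusted p = 2.02e-06).

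Among the 10 laminin receptor and processing genes, 2 rose and 5 fell in MC26 against CT (list median -0.21), 2 rose and 3 fell in M1B26 against CT (-0.12), and 2 rose and 2 fell in M1B26 against MC26 (-0.09), the last 2 comparisons near the share of all genes. MMP14, a protease of the cell membrane that cleaves matrix proteins, read 114, 100.1 and 115 CPM in CT, 322, 273 and 243 CPM in MC26, and 160.2, 165 and 156 CPM in M1B26. It rose by 1.35 (SE 0.10, adjusted p = 3.36e-06 by edgeR) in MC26. BMP1, a protease that processes laminin-332 and collagen chains, fell by 1.20 (SE 0.08, adjusted p = 9.37e-07) in M1B26. BCAM, a receptor of the alpha 5 chain, fell by 2.08 (SE 0.24) in MC26, while SDC1, a syndecan, rose by 0.59 (SE 0.10) in M1B26. Of the 8 membrane proteins that associate with integrins, 3 rose and 3 fell in MC26 against CT (list median -0.04), 3 rose and none fell in M1B26 against CT (0.04), and 2 rose and 1 fell in M1B26 against MC26 (0.08). In each of the last 2 comparisons 37.5% of the list was called, beside 48.9% and 39.5% of all genes. PLAUR, the urokinase receptor, rose by 1.61 (SE 0.17) in MC26 and by 0.88 (SE 0.17) in M1B26, while the tetraspanin CD9 fell by 1.11 (SE 0.12) in MC26 and the tetraspanin CD82 rose by 0.50 (SE 0.09) in M1B26.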

How the data were processed

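Poly-A RNA of 9 MCF10A-derived cultures was sequenced in paired-end mode. Reads were aligned to GRCh38 with STAR 2.7.3a. The authors deposited raw counts per gene symbol, and Salmon 1.1.0 is also named in their processing notes, so the program that made the counts, its use of strand and its treatment of multiply aligned reads are not known. The sample titles gave each library's group and replicate number.

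From the deposited counts, edgeR 4.0.16 (R 4.3.3) was run with filterByExpr (minimum count of 10), TMM factors (0.968 to 1.07) and the quasi-likelihood test with group as the 1 term over all 9 libraries. The biological coefficient of variation was 10.4%. Adjusted p-values cover all 15717 genes tested, of 29997 with at least 1 count. SE was the log2 fold change divided by the square root of F. The scripts were tested on simulated data. Positions, exonic lengths and GC content came from GENCODE v44 on GRCh38, which held all 37 chains, and promoter windows from RefSeq (GRCh38.p14).

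Chains with a mean of at least 5 CPM in a group are given per library, and others by range or counts. Another 1 of the 38 chains that match the symbols is not reported here, and counts of chains leave it out. From each list of other genes, the 2 with the largest called change per comparison and a mean of at least 5 CPM over all libraries are named. The chains and lists were chosen with earlier results of these data known. The alternatives tried included DESeq2 1.42.0, RLE factors, library totals unscaled, a filter at a mean of 50 counts or none, the 6 libraries compared alone, a replicate block, length and GC offsets, an adjusted p under 0.01, glmTreat at 1.5-fold, and the omission of each library.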

Additional observations from a re-analysis of the deposited data

Results flagged for a closer look

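14 chains differed between the 2 derived lines by the direct test of M1B26 against MC26 (edgeR, adjusted p under 0.05 over all genes), which is why they are listed, where 39.5% of all genes were called. The log2 differences were -2.06 for ITGA4, -1.17 for LAMA3, -0.68 for ITGB8, -0.54 for ITGB5, -0.46 for ITGA6, -0.39 for ITGAV, -0.38 for ITGA5 and -0.20 for LAMC1 among the lower chains. Among the higher chains they were 0.35 for ITGB4, 0.50 for ITGA1, 0.61 for ITGA3, 0.84 for LAMB4, 0.94 for ITGAE and 2.46 for LAMA4. LAMB4 and LAMA4 were at most 1.33 CPM in any library, and the LAMB4 call was lost without MC26 replicate 2 (0.66) or M1B26 replicate 3 (0.71). ITGA3, ITGB4 and ITGAE lie on chromosome 17, whose other genes had a median of 0.48 in this comparison, and LAMA3, ITGB8 and ITGA1 were among the 5 chains that varied at least 1.5-fold among the MC26 cultures. The part of either in these values was not tested.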

How the results depend on the processing

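Of 1671 values of single chains and comparisons recomputed under another setting, 1516 kept their direction and call, 74 lost the call, 46 gained one and 30 changed sign, most of the last with a main value near 0. The other 5, of ITGA3, ITGB4 and ITGAE set relative to the chromosome 17 median, kept their direction and moved by more than the spread between replicates. Over the settings that keep the 0.05 threshold, glmTreat left out, 20, 20 and 9 of 28 chains kept both direction and call throughout. The order, also used below, is MC26 to CT, M1B26 to CT, and M1B26 to MC26. A chain that was never called but changed sign in a setting is not among these. The chains called numbered 18 to 20, 18 to 22 and 10 to 16 with 1 library left out, and all genes called 4524 to 6127, 6282 to 7941 and 4503 to 7166. With glmTreat at 1.5-fold, 10, 12 and 3 chains and 1463, 1725 and 964 genes were called. At an adjusted p under 0.01, 8 chains were called in M1B26 against MC26, and 3698 genes in MC26 against CT and 3685 in M1B26 against MC26. Same-numbered replicates did not deviate together (correlations from -0.114 to 0.136), so the numbers were not taken as pairs. With a replicate block, 19, 20 and 14 chains were called.

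In MC26 against CT the sign changed for ITGA2 with total counts (-0.04), for ITGA2B with the replicate block (-0.05), for ITGAV with total counts (-0.02) and for ITGAE with length and GC offsets (0.03, with and without the block). With 1 library left out, ITGA2 ran from -0.01 to 0.12 and ITGA2B from -0.83 to 0.77. In M1B26 against CT, LAMC1 changed sign with those offsets (0.06, with and without the block) and ran from -0.05 to 0.01 with 1 library left out. In M1B26 against MC26 the ranges with 1 library left out were -0.0046 to 0.18 for ITGA2, -0.40 to 0.02 for ITGA7, -0.23 to 0.34 for ITGAX, -0.07 to 0.08 for ITGB1, -0.22 to 0.18 for ITGB6, -0.20 to 0.04 for LAMA1, -0.06 to 0.17 for LAMA2 and -0.27 to 0.02 for LAMA5. The sign also changed for ITGAX with offsets (-0.02, with and without the block), ITGB1 with total counts (-0.01), ITGB6 with the replicate block (0.0013) and ITGB4 relative to the chromosome 17 median (-0.13). The cause was not tested. Besides those of ITGA5 and of LAMA3 and LAMB3 given above, calls absent from the fit of all libraries but made with 1 left out were, in MC26 against CT, ITGA1 without MC26 replicate 1 (0.40), in M1B26 against CT, ITGA2B without MC26 replicate 1 or 2 (1.49), and in M1B26 against MC26, ITGA10 without MC26 or M1B26 replicate 3 (0.59 and 0.49), ITGA2B without MC26 replicate 2 (2.31), ITGB2 without CT replicate 2 or M1B26 replicate 1 (-0.39 and -0.54) and LAMB2 without CT replicate 2 (-0.19). The 9 untested chains had at most 42 counts per group. Without the filter, edgeR called 1 of them, LAMC3, lower in MC26 than in CT (adjusted p = 0.0385, with 0 counts in MC26 and 11 in CT), and for the other 8 a difference was not detectable at this depth.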
